A study of Mus musculus with 64 samples.

Results

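The nuclear genes of the mitochondrial respiratory chain were followed in mouse macrophages for 24 h after an inflammatory stimulus. They were taken by symbol: every gene whose symbol begins with Ndufa, Ndufb, Ndufc, Ndufs, Ndufv, Sdha to Sdhd, Uqcr, Cox4 to Cox8 or Atp5, measured by a probe set that carries 1 symbol, with the brightest probe set standing for the gene. This gave 92 genes of the 18820 measured. The prefixes also catch 11 assembly factors (Ndufaf1 to Ndufaf7 and Sdhaf1 to Sdhaf4), which are not part of the finished complexes and are described apart. By role the 92 genes were 6 core and 28 accessory subunits of complex I, 7 complex I assembly factors, 4 succinate dehydrogenase subunits with 4 assembly factors, 7 complex III subunits, 19 genes of cytochrome oxidase (complex IV) and 17 of ATP synthase (complex V). Cox7c, Ndufa13, Uqcrc2 and Ndufs5-ps lay only on probe sets that carry several symbols and were not used here.

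The cells were bone marrow-derived macrophages from femurs of male mice aged 7 to 8 weeks, grown with the growth factor CSF1 (10000 U/ml), harvested on day 6, plated at 200000 cells per well in 24-well plates and treated on day 7. The 6 time courses were IFN-beta at 10 U/ml in BALB/c, IFN-gamma at 10 U/ml in BALB/c, lipopolysaccharide (LPS, a bacterial outer membrane component) at 5 ng/ml in BALB/c, and LPS at 0.5, 5 and 50 ng/ml in C57BL/6, each sampled at 1, 2, 4, 8 and 24 h. Each strain had 1 untreated 0 h group, shared by all its courses. No untreated wells of the later times were used here, so the effect of a stimulus and of time in culture cannot be told apart in a change from 0 h. Each of the 32 groups held 2 arrays from separate wells, which gave 64 Affymetrix arrays from 250 ng of RNA each, and the p-values reflect the spread between wells.

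The respiratory chain carries electrons from NADH (through complex I) and from succinate (through complex II, succinate dehydrogenase) to complex III and on to cytochrome oxidase, which reduces oxygen. The protons pumped on the way drive ATP synthase. In macrophages LPS is known to shift energy supply towards glycolysis and to turn succinate and reverse electron flow at complex I into inflammatory signals, so the transcripts of these complexes are of interest in this cell. Several cytochrome oxidase subunits exist as a broadly expressed form and a form known from heart and skeletal muscle: Cox6a1 and Cox7a2 are the broad forms, and Cox6a2 and Cox7a1 the muscle forms of the same subunits. Assembly factors such as the Ndufaf and Sdhaf proteins help to build complex I and succinate dehydrogenase and then leave.

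Values are log2 of the deposited intensity. All changes come from 1 limma model with a mean for each of the 32 groups, and a gene is called changed at a Benjamini-Hochberg adjusted p under 0.05 over all 18820 genes. Replicate arrays correlated at 0.992 to 0.998. Array medians lay between 25.6 and 29.0 intensity units. Of the 92 genes, 88 had a mean above the 40th percentile of all values (4.49 on the log2 scale), and Cox6b2, Cox7b2, Cox8b and Ndufa4l2 were dimmer. Macrophage markers were measured for 7 genes, all with a median above that percentile, and Csf1r, the CSF1 receptor, lay between 11.56 and 12.60 over the 64 arrays. All 5 lymphoid markers, 3 of 7 granulocyte, 2 of 4 dendritic and 1 of 5 stromal markers lay under it. On probe sets without a gene, 11 arrays stood apart from the other 53, and 5 arrays differed from their replicate at more genes than the rest. The set of 11 split 9 groups. It holds the second 24 h arrays of LPS in BALB/c, of IFN-beta and of LPS at 0.5 ng/ml in C57BL/6, but not the first. In these groups a loss without the second 24 h array cannot be told apart from a loss of the array in that set. In the untreated C57BL/6 arrays the summed level of 6 LPS-induced genes was 13.35 to 13.51 on the log2 scale, against 8.10 to 8.38 in the untreated BALB/c arrays, so C57BL/6 changes from 0 h start from cells that already held these transcripts. Their part in the results below was not tested. For those of the 92 genes that the C57BL/6 results turn on, the change counted from 2 h or 8 h is given as well.

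The proximal promoters of Cox7a1, of the broad partner forms Cox7a2 and Cox6a1 and of 2 assembly factors that rose with LPS (Sdhaf1 and Ndufaf1) are shown first so that the values can be read against them. RefSeq promoters (GRCm38.p6, 250 bases before to 30 after the transcript start, 280 bases in all) were matched for 77 of the 92 genes, and Cox6a2 was not among them. They were searched on both strands for GCGCA, any base and GCGC in a row (the nuclear respiratory factor NRF1), CCGGAAG (ETS factors, including GABP), GAGGAAGT (PU.1, the macrophage lineage factor), GAAA, any 2 bases and GAAA in a row (interferon response element) and TATAAA. Matches of the 5 motifs are in capitals in the sequences below, the reverse complement of CCGGAAG reading CTTCCGG.

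Cox7a1 (chr7:30183921-30184200, plus strand): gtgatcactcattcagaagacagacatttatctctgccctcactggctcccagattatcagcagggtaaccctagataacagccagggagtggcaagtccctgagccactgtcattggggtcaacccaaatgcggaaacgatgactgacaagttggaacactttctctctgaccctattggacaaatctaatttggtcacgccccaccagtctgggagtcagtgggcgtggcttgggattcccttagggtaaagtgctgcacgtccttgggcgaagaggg

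Cox7a2 (chr9:79759824-79760103, minus strand): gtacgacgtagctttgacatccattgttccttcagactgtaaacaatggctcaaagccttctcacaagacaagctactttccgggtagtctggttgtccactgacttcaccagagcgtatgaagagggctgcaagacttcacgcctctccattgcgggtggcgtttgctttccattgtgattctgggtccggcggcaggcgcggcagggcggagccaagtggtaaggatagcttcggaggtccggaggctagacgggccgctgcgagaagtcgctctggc

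Cox6a1 (chr5:115348929-115349208, minus strand): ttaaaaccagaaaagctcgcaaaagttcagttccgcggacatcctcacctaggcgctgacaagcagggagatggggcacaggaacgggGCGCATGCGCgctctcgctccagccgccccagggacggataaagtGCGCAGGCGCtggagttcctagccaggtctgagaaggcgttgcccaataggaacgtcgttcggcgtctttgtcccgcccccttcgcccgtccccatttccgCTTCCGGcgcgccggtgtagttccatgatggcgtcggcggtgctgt

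Sdhaf1 (chr7:30322346-30322625, minus strand): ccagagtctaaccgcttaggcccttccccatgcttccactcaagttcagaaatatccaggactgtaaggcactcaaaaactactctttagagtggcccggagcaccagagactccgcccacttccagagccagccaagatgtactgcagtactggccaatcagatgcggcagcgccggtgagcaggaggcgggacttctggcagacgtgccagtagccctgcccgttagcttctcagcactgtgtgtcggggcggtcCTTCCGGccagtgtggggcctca

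Ndufaf1 (chr2:119662805-119663084, minus strand): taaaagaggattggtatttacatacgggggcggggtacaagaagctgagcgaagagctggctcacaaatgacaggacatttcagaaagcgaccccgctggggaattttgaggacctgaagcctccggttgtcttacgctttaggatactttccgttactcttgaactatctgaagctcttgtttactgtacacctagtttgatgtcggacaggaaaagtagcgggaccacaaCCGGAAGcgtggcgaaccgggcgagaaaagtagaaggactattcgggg

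The NRF1 motif was found in 19 of the 77 promoters (24.7%), against 1236 of all 27025 promoters (4.57%). The ETS motif was found in 20 (26%) of them, against 8.7% of all promoters. Cox6a1 held the NRF1 motif at both capitalised NRF1 positions and 1 ETS motif, and Sdhaf1 and Ndufaf1 held 1 ETS motif each. Cox7a1 and Cox7a2 held none of the 5 motifs in this window. PU.1 motifs were found in 1 of the 77 (1.3% against 2.84% of all promoters), interferon response elements in 2 (2.6% against 3.35%) and TATAAA in 8 (10.4% against 13.7%). By role, the NRF1 motif was present in 5 of 15 matched ATP synthase genes, 6 of 26 accessory and 0 of 5 core subunits of complex I, 2 of 3 succinate dehydrogenase subunits and 1 of 13 cytochrome oxidase genes. A match describes these letters only and is no evidence of binding.

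Most of these genes moved little across the 32 groups. The distance between a gene's lowest and highest group mean had a median of 0.668 log2 units for the 92 genes, against 0.822 for all 18820 genes and 1.14 for the 11305 genes whose mean lay above the 40th percentile. It was under 1 log2 unit for 79 of 92 genes (85.9%), against 61.5% of all genes and 40.8% of the brighter ones. Cox6c, a cytochrome oxidase subunit, had the smallest range of the 92 (0.20), followed by Atp5b, the catalytic beta subunit of ATP synthase (0.25), Cox8a (0.29) and Atp5d (0.31). Only Cox6a2 (3.10) and Cox7a1 (2.59) ranged over more than 2 log2 units. Among all genes these ranges lay at the 95.5th and 93.1st percentile. Next came Sdhaf1 (1.70), the complex I accessory subunit Ndufa12 (1.38) and the assembly factors Ndufaf7 (1.36), Ndufaf4 (1.22) and Ndufaf1 (1.20).

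**Figure D1:**
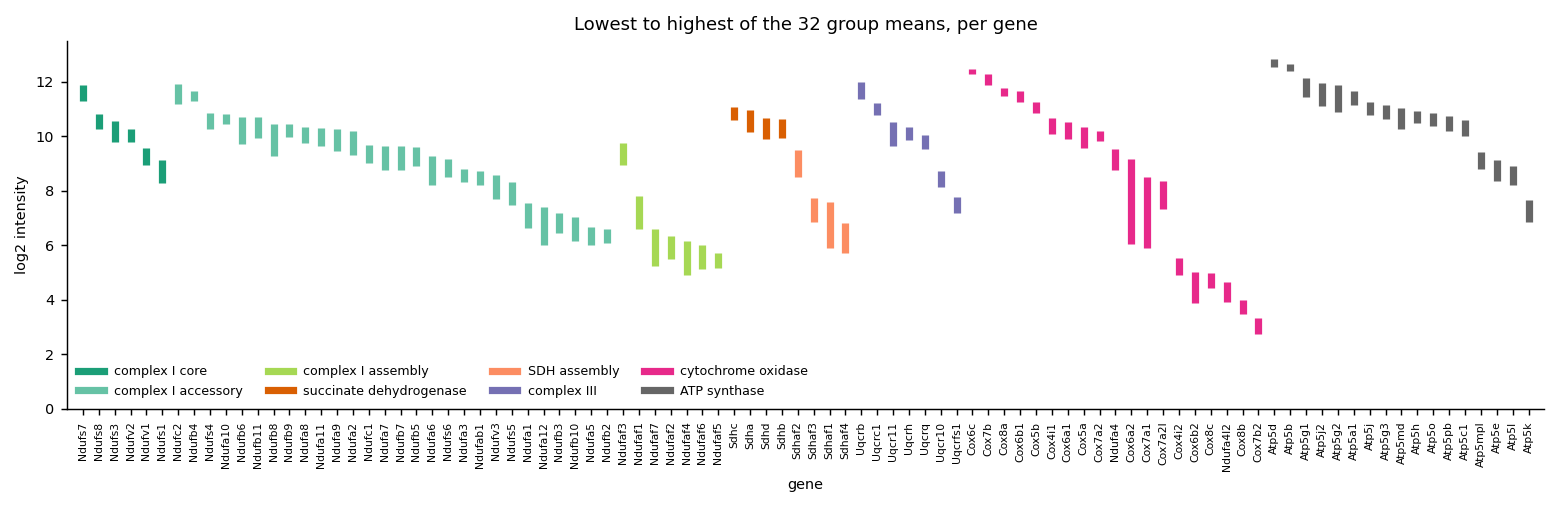
Range of each of the 92 genes over the 32 group means, drawn as a line from the lowest to the highest group mean on the log2 intensity axis. Cox6a2 and Cox7a1 span 3.10 and 2.59 log2 units, and 79 of the 92 genes span less than 1.

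The change after 24 h was compared with 0 h in each course. With LPS at 5 ng/ml in BALB/c, 7 of the 92 genes rose and 30 fell, where 32.8% of all genes were called (15.3% higher and 17.4% lower). With LPS in C57BL/6, 7 rose and 6 fell at 0.5 ng/ml (26.8% of all genes called), 9 rose and 13 fell at 5 ng/ml (28.1%), and 8 rose and 12 fell at 50 ng/ml (28.9%). IFN-beta gave 1 higher and 5 lower (11.5% of all genes called), and IFN-gamma 3 higher and 2 lower (14.9%). Except for the falls in BALB/c with LPS, the shares of the 92 genes called were below or close to those of all genes. The size of the falls depended on scaling: centring each array on the median moved the median change of all genes from -0.031 to 0.149 in BALB/c with LPS, and the split became 14 higher and 11 lower, where 23.2% of all genes were then called higher and 11.9% lower. Centring gave 1 higher and 4 lower for IFN-beta (7.06% and 4.88% of all genes) and 5 and 1 for IFN-gamma (9.46% and 5.49%). In C57BL/6 with LPS it gave 19 higher and 3 lower at 0.5 ng/ml (19.6% and 9.62% of all genes), 14 and 5 at 5 ng/ml (19.5% and 10.8%) and 15 and 3 at 50 ng/ml (23% and 10.3%). The untreated BALB/c arrays had the highest means over the 92 genes of all 64 arrays (9.19 and 9.17, with a range over arrays of 8.96 to 9.19), and counted from 2 h the BALB/c LPS course gave 16 higher and 11 lower, where 32.5% of all genes were called (16.8% higher and 15.6% lower). Counted from 2 h the C57BL/6 courses gave 8 higher and 9 lower at 0.5 ng/ml (29.5% of all genes called), 10 and 13 at 5 ng/ml (31.4%) and 4 and 16 at 50 ng/ml (32.1%).

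Single arrays moved these counts, and the share of all genes called in such fits is not given. For LPS in BALB/c 23 genes in place of 37 were called without the first untreated array. In C57BL/6 8 in place of 13 were called at 0.5 ng/ml without the first untreated array, and 12 in place of 22 at 5 ng/ml without the second 24 h array, with 11 and 13 without the first or second untreated array. At 50 ng/ml 11 and 13 in place of 20 were called without the first or second 24 h array, and 12 and 9 without the first or second untreated array. For IFN-beta the count of 6 became 10 without the first 24 h array and 1 without either untreated array. For IFN-gamma the count of 5 became 3 and 2 without the first or second 24 h array and 1 without the first untreated array.

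The median change of the 92 genes at 24 h was -0.163 in BALB/c with LPS, 0.023, -0.070 and -0.033 in C57BL/6 with LPS at 0.5, 5 and 50 ng/ml, -0.120 with IFN-beta and -0.038 with IFN-gamma, while the all-gene medians lay between -0.033 and -0.002. With each array centred on its median the medians of the 92 genes were 0.017 in BALB/c with LPS, 0.143, 0.051 and 0.146 in C57BL/6, -0.068 with IFN-beta and 0.064 with IFN-gamma, a change of sign in all but IFN-beta and the lowest LPS dose. The centred all-gene medians were 0.149, 0.097, 0.110, 0.178, 0.029 and 0.069 in the same order. For most genes the data bounded the change: its 95% interval lay within 1 log2 unit of 0 in 79 of 92 genes in BALB/c with LPS (85.9%, against 81.2% of all genes). It did so in 86, 88 and 89 genes in C57BL/6 at 0.5, 5 and 50 ng/ml, and in 90 genes with either interferon. The genes outside that band were led by Cox6a2 and Cox7a1, which moved in opposite directions.

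**Figure D2:**
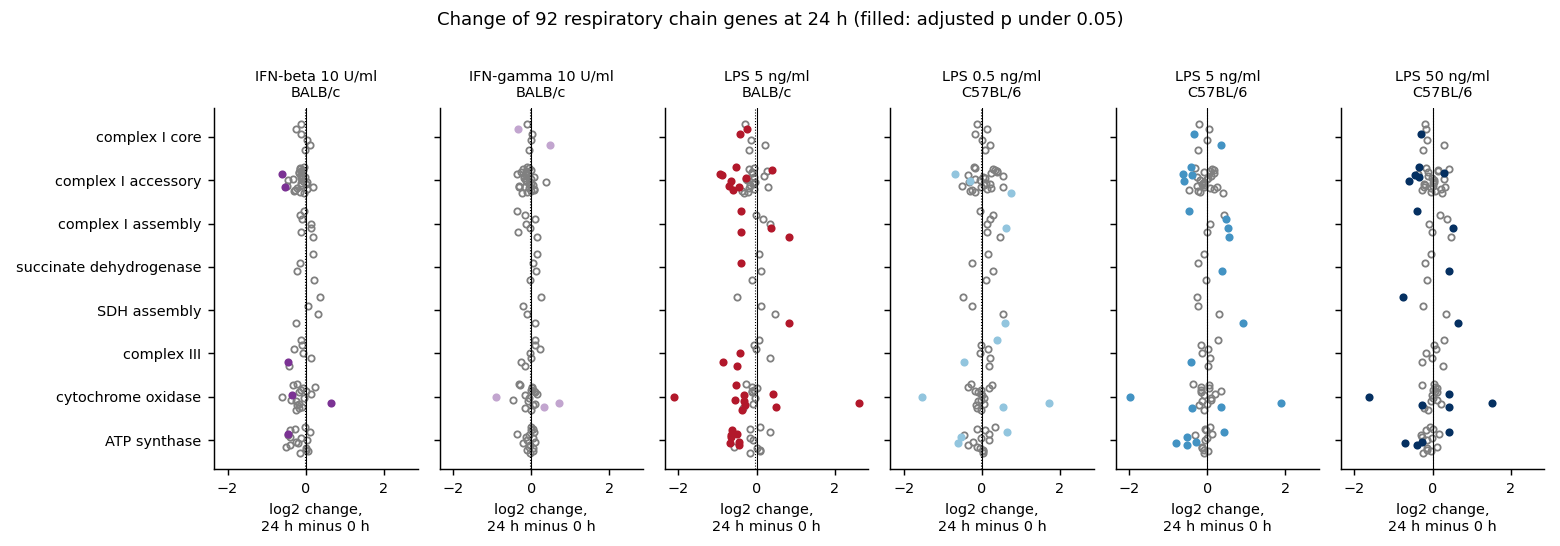
Log2 change from 0 h to 24 h of each of the 92 genes (points) in the 6 courses, grouped by role, with filled points for genes called at adjusted p under 0.05 and a dotted line at the median change of all genes. In the LPS courses 1 oxidase gene lies far above 0 (Cox6a2) and 1 far below (Cox7a1), and the other genes lie between -0.93 and 0.91; under centring of each array all points of the BALB/c LPS course shift upward and 11 rather than 30 genes are called lower.

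Cox6a2 encodes the muscle form of subunit VIa of cytochrome oxidase. It read 6.53 and 6.54 in untreated BALB/c and 6.25 and 6.20 in untreated C57BL/6 macrophages, above the 40th percentile of all values. After 24 h of LPS it read 9.43 and 8.89 in BALB/c, against the 6.53 and 6.54 of the untreated wells. In C57BL/6 it read 8.27 and 7.64 at 0.5 ng/ml, 8.35 and 7.90 at 5 ng/ml and 7.61 and 7.87 at 50 ng/ml. Every 24 h LPS array lay above every untreated array of its strain. The rise was 2.62 ± 0.19 (SE) on the log2 scale in BALB/c, a 6.17-fold change (limma, adjusted p = 2.11e-14). In C57BL/6 it was 1.73, 1.90 and 1.51 ± 0.19 at 0.5, 5 and 50 ng/ml, with adjusted p of 2.32e-09, 1.86e-10 and 3.23e-08. These 4 calls held in each alternative that was run.

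The rise of Cox6a2 came between 8 and 24 h. In BALB/c with LPS the gene read 6.26 and 6.03 at 1 h, 6.34 and 6.20 at 2 h, 6.54 and 6.22 at 4 h and 6.42 and 6.31 at 8 h, all close to or below the untreated wells. No course had a call for Cox6a2 at 8 h against 0 h (changes between -0.17 and 0.32). From 8 to 24 h it rose by 2.79 in BALB/c with LPS (adjusted p = 1.3e-14), the 9th largest rise among 18820 genes. In C57BL/6 the 24 h minus 8 h change was 1.52 and 1.58 at 0.5 and 5 ng/ml (adjusted p = 1.06e-07 and 2.18e-08), and it was called at 50 ng/ml as well (adjusted p = 5.68e-08). Counted from 2 h, which leaves out the untreated C57BL/6 wells, it rose by 1.67, 2.06 and 1.66.

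The interferons moved Cox6a2 less. It read 7.39 and 6.95 at 24 h of IFN-beta and 7.19 and 7.33 at 24 h of IFN-gamma, all above the untreated BALB/c wells. The rise was 0.63 ± 0.19 for IFN-beta (adjusted p = 0.0246) and 0.72 ± 0.19 for IFN-gamma (adjusted p = 0.00676). The IFN-beta call was lost without the first 24 h array (0.41, adjusted p = 0.282) or without either untreated array (0.62 and 0.64, adjusted p = 0.127 and 0.117). The IFN-gamma call was lost without the second 24 h array (0.65, adjusted p = 0.0795) or the first untreated array (0.71, adjusted p = 0.0523).

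Cox7a1, the muscle form of subunit VIIa, went the other way. It read 8.23 and 8.24 in untreated BALB/c and 7.77 and 8.00 in untreated C57BL/6 macrophages. After 24 h of LPS it read 6.33 and 5.92 in BALB/c, and 6.27 and 6.44, 6.02 and 5.81, and 6.25 and 6.24 in C57BL/6 at 0.5, 5 and 50 ng/ml. All 8 of these arrays lay more than 1 log2 unit below the untreated wells of their strain. The fall was -2.11 ± 0.21 in BALB/c, a 4.31-fold change (adjusted p = 6.57e-11), and -1.53, -1.97 and -1.64 in C57BL/6 at the 3 doses in rising order (adjusted p = 1.82e-07, 5.47e-10 and 3.25e-08). These calls too held in each alternative.

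The fall of Cox7a1 was likewise late. At 8 h it read 8.05 and 7.94 in BALB/c with LPS, 7.77 and 7.96 in C57BL/6 at 0.5 ng/ml, 7.79 and 8.17 at 5 ng/ml and 8.01 and 8.00 at 50 ng/ml, and no course had a call against 0 h. From 8 to 24 h it fell by 1.87 on the log2 scale in BALB/c (adjusted p = 3.05e-09), and by 1.51, 2.06 and 1.76 in C57BL/6 at 0.5, 5 and 50 ng/ml. With IFN-gamma it read 7.28 and 7.41 at 24 h and fell by 0.89 ± 0.21 from 0 h (adjusted p = 0.00194), although counted from 2 h the change was -0.51 (adjusted p = 0.0923). With IFN-beta it read 7.88 and 7.38, a change of -0.60 that was not called (adjusted p = 0.0563). A single 1 h array at 0.5 ng/ml in C57BL/6 read 6.98 beside a replicate of 7.55, and this is a group in which 1 array stood apart.

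The broadly expressed partner forms changed by far less. Cox6a1 read 10.12 and 10.14 at 24 h of LPS in BALB/c, against 10.27 and 10.16 untreated, and 10.34 and 10.40, 10.33 and 10.29, and 10.54 and 10.52 in C57BL/6 at the 3 doses, against 10.30 and 10.32 untreated. Its 24 h changes, between -0.18 and 0.22 (SE 0.13), were called in none of the 6 courses. Cox7a2 read 9.94 and 9.78 at 24 h of LPS in BALB/c, against 10.14 and 10.20 untreated. It fell there by 0.31 ± 0.09 (limma, adjusted p = 0.00342), while centring each array moved the all-gene median of that comparison from -0.031 to 0.149. Cox7a2 also fell by 0.34 with IFN-beta (limma, adjusted p = 0.00542). That call was lost without the first IFN-beta array (-0.28) or the second untreated array (-0.31). In C57BL/6 its changes were -0.01, -0.07 and -0.03, and none was called. Intensities of different probe sets cannot be set against each other, so the share of each form in the subunit pool is not given by these data.

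**Figure D3:**
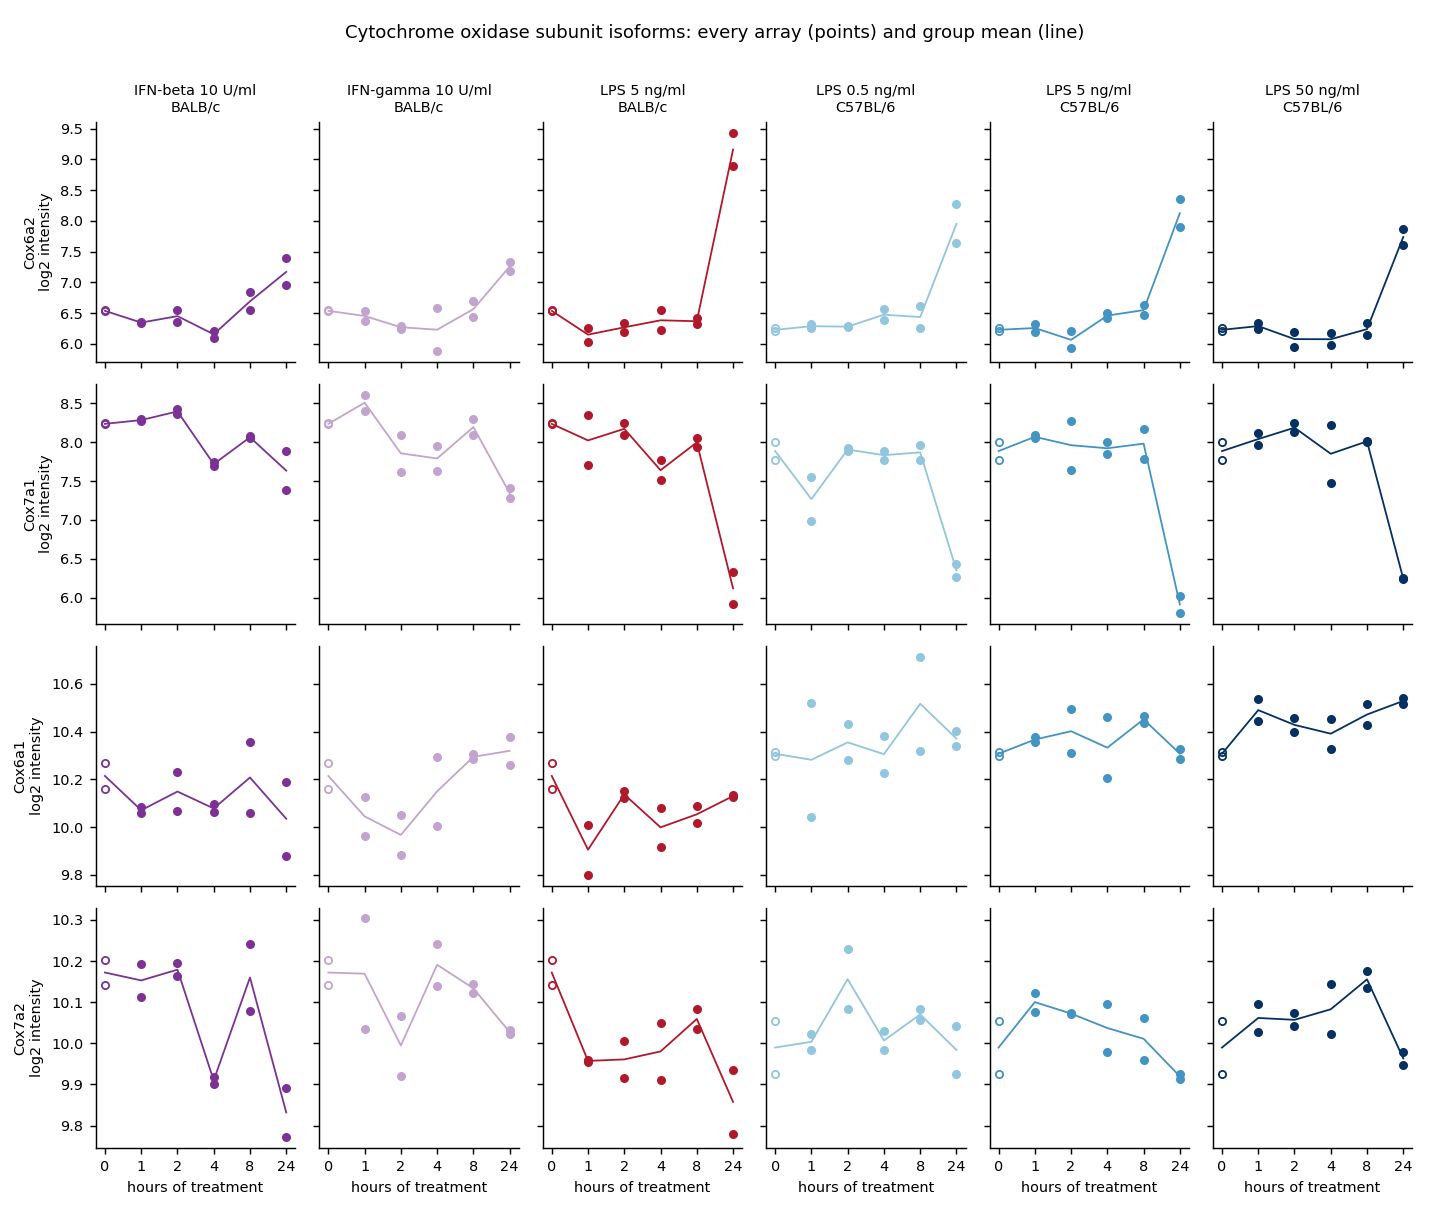
Log2 intensity of the muscle forms Cox6a2 and Cox7a1 and of the broad forms Cox6a1 and Cox7a2 (rows) against time in the 6 courses (columns), with 1 point per array and open points for the untreated wells. Cox6a2 climbs and Cox7a1 drops between 8 and 24 h in each LPS course, while Cox6a1 and Cox7a2 stay within about the same band.

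Among the other cytochrome oxidase genes, the nuclear-encoded subunit gene Cox5a rose in every LPS course. It read 10.31 and 10.35 in BALB/c at 24 h, against 9.89 and 9.78 untreated, and 10.19 and 10.30, 10.08 and 10.04, and 10.16 and 10.09 in C57BL/6 at the 3 doses, against 9.68 and 9.72 untreated. The rise was 0.49 in BALB/c and 0.54, 0.36 and 0.42 in C57BL/6 (SE 0.11, adjusted p = 0.00039, 0.000151, 0.0103 and 0.00244). The C57BL/6 changes of Cox5a were 0.57, 0.28 and 0.31 counted from 2 h (adjusted p = 7.44e-05, 0.0515 and 0.0261). With IFN-gamma it was 0.33 (adjusted p = 0.0378), lost without any 1 of the 4 arrays compared (0.27 to 0.38, adjusted p up to 0.263), and with IFN-beta the change was -0.09. In BALB/c with LPS 3 of the 19 cytochrome oxidase genes rose and 7 fell (15.3% of all genes called higher and 17.4% lower). The falls other than Cox7a1 and Cox7a2 were small: Ndufa4 (-0.51), now counted with cytochrome oxidase, Cox4i1 (-0.36), Cox6b1 (-0.33), Cox5b (-0.29) and the dim Cox6b2 (-0.56). The size of these falls depended on scaling, since centring each array moved the all-gene median from -0.031 to 0.149. The supercomplex factor Cox7a2l rose by 0.41 in BALB/c with LPS (adjusted p = 0.0426), but by 0.13 without the first 24 h array (adjusted p = 0.671) and by 0.28 without the second untreated array (adjusted p = 0.338). At 50 ng/ml in C57BL/6 Cox7a2l rose by 0.42 (adjusted p = 0.0442), a call lost without any 1 of the 4 arrays compared (0.41 to 0.43, adjusted p up to 0.151).

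The other tissue-restricted forms had 1 further call in the C57BL/6 courses. Cox4i2, the lung and hypoxia form of subunit IV, changed by -0.36 in BALB/c with LPS (adjusted p = 0.0554) and fell by 0.40 in C57BL/6 at 5 ng/ml (adjusted p = 0.0345), with -0.12 counted from 2 h (adjusted p = 0.622). Cox8c, known from testis, had changes between -0.36 and 0.23 and no call. Cox7b2, Cox8b and Ndufa4l2, all dim, had no call in any 24 h minus 0 h comparison.

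ATP synthase makes ATP from the proton gradient. In BALB/c with LPS 0 of its 17 genes rose and 7 fell (15.3% of all genes called higher and 17.4% lower). In C57BL/6 1 rose with 2, 4 and 3 falls at 0.5, 5 and 50 ng/ml (26.8%, 28.1% and 28.9% of all genes called). The falls included all 3 genes for the c subunit of the rotor ring, which encode the same mature protein behind different import signals. Atp5g2 read 11.27 and 11.13 at 24 h of LPS in BALB/c, against 11.91 and 11.84 untreated, and 11.12 and 11.05, 11.04 and 10.75, and 11.03 and 10.96 in C57BL/6, against 11.73 and 11.68 untreated. It fell by 0.68 ± 0.11 in BALB/c (adjusted p = 2.7e-06) and by 0.62, 0.81 and 0.71 in C57BL/6 (adjusted p = 1.72e-05, 1.07e-07 and 1.4e-06), and all 4 calls held in each alternative. Atp5g1 changed by -0.44 in BALB/c and by -0.36, -0.51 and -0.39 in C57BL/6, all called but the lowest dose (adjusted p = 0.0633), and at 5 ng/ml it was -0.39 without the second 24 h array, which stands apart (adjusted p = 0.119). Atp5g3 changed by -0.44 and by -0.22, -0.29 and -0.26, again all called but the lowest dose (adjusted p = 0.0685). Atp5g2 fell from its 2 h level by 0.61, 0.63 and 0.69 at the 3 doses (adjusted p = 2.19e-05, 9.78e-06 and 2.18e-06). Atp5g1 then changed by -0.35, -0.31 and -0.33 with no call (adjusted p = 0.0727, 0.112 and 0.0835), and by -0.21 in BALB/c (adjusted p = 0.308). Atp5g3 changed by -0.18, -0.24 and -0.26 from 2 h, called at the upper doses (adjusted p = 0.0402 and 0.0217). With the interferons none of the 3 was called: Atp5g2 changed by -0.20 in both.

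The remaining ATP synthase changes were in small membrane subunits. Atp5k (-0.65), Atp5j2 (-0.65), Atp5mpl (-0.63) and Atp5l (-0.50) fell in BALB/c with LPS. Atp5j2 also fell in C57BL/6, by 0.54 at 0.5 ng/ml (adjusted p = 0.0162) and 0.52 at 5 ng/ml (adjusted p = 0.0208). Both calls were lost without the second 24 h array (-0.47 and -0.34, adjusted p = 0.129 and 0.268) or either untreated array. Atp5md, the DAPIT subunit that joins ATP synthase dimers, rose in C57BL/6 by 0.64, 0.43 and 0.42 at the 3 doses (adjusted p = 0.000735, 0.0245 and 0.0294), with a change of 0.34 in BALB/c that was not called (adjusted p = 0.0791). At 5 ng/ml the Atp5md call was lost without the second 24 h array (0.28, adjusted p = 0.299) or either untreated array, and at 50 ng/ml without the first 24 h array (0.32, adjusted p = 0.236) or either untreated array. The Atp5md changes were 0.58, 0.10 and 0.23 counted from 2 h, called only at 0.5 ng/ml (adjusted p = 0.00198, 0.684 and 0.279). The catalytic beta subunit Atp5b was called in no 24 h minus 0 h comparison.

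Complex I takes electrons from NADH. Of its 28 accessory subunits 1 rose and 8 fell in BALB/c with LPS, where 32.8% of all genes were called. In C57BL/6 at 0.5, 5 and 50 ng/ml 2, 4 and 4 fell and 1, 0 and 1 rose. There 26.8%, 28.1% and 28.9% of all genes were called, so these counts were near or below the share of all genes. Ndufb8, an accessory subunit of the membrane arm, read 9.71 and 9.33 in BALB/c at 24 h of LPS, against 10.45 and 10.46 untreated. It fell by 0.93 ± 0.17 (adjusted p = 1.8e-05) and by 0.70 and 0.62 in C57BL/6 at 0.5 and 5 ng/ml (adjusted p = 0.00116 and 0.00381), with -0.38 at 50 ng/ml (adjusted p = 0.0887). Without the second array the 0.5 ng/ml change was -0.50 (adjusted p = 0.0725), and counted from 2 h the changes at the 3 doses were -0.54, -0.23 and -0.38, called only at 0.5 ng/ml (adjusted p = 0.0117, 0.348 and 0.0842). Ndufb7 read 8.98 and 8.52 in BALB/c, against 9.63 and 9.66 untreated, a fall of 0.89 ± 0.15 (adjusted p = 5.61e-06). In C57BL/6 at 50 ng/ml it fell by 0.44 (adjusted p = 0.0226), a call lost without any 1 of the 4 arrays compared (-0.42 to -0.46, adjusted p up to 0.108). Ndufb11 fell by 0.66 ± 0.12 in BALB/c (adjusted p = 1.18e-05) and by 0.30, 0.59 and 0.60 in C57BL/6, where the 0.5 ng/ml call was lost without any 1 of the 4 arrays compared (-0.29 to -0.32, adjusted p up to 0.175). The Ndufb11 changes at the 3 doses were -0.27, -0.58 and -0.57 counted from 2 h (adjusted p = 0.0811, 9.31e-05 and 0.000113). Ndufb7, Ndufb8 and Ndufb11 all belong to the membrane arm.

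Further accessory subunits were called in single courses. Ndufa7 read 9.20 and 8.70 at 24 h of LPS in BALB/c, against 9.63 and 9.68 untreated, a fall of 0.70 (adjusted p = 0.00735). Its change was -0.45 without the second 24 h array (adjusted p = 0.198), and -0.37 counted from 2 h with no call. Ndufs4, a late-added subunit of the peripheral arm, rose there by 0.40 (adjusted p = 0.0311), and the call was lost without the second 24 h array (0.22, adjusted p = 0.409) or either untreated array (adjusted p = 0.0865 and 0.132). Ndufa1 read 7.32 and 7.64 in C57BL/6 at 0.5 ng/ml, against 6.61 and 6.84 untreated, a rise of 0.76 (adjusted p = 0.00416). That call was lost without the second 24 h array (0.59, adjusted p = 0.0948) or the first untreated array (0.65, adjusted p = 0.0697).

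The 6 core subunits include those that carry the flavin and iron-sulphur centres. Of these 6, 0 rose and 2 fell in BALB/c with LPS (32.8% of all genes called). With IFN-gamma (14.9% of all genes called) and in C57BL/6 at 5 ng/ml (28.1%) 1 rose and 1 fell, and 1 fell at 50 ng/ml (28.9%). Ndufs8 fell in BALB/c with LPS (-0.42, adjusted p = 0.000699) and in C57BL/6 at 5 and 50 ng/ml (-0.34 and -0.29). Counted from 2 h its changes were -0.15 in BALB/c (adjusted p = 0.294) and -0.36, -0.44 and -0.47 in C57BL/6 at the 3 doses (adjusted p = 0.00367, 0.000448 and 0.000178). Ndufv1, the NADH-binding subunit, fell by 0.24 in BALB/c with LPS (limma, adjusted p = 0.034). This fall depended on scaling, since centring each array moved the all-gene median of that comparison from -0.031 to 0.149. With IFN-gamma Ndufv1 fell by 0.33 (limma, adjusted p = 0.00654). That call was lost without the first IFN-gamma array (-0.32) or the first untreated array (-0.27). Ndufs3 rose by 0.48 with IFN-gamma, from arrays of 10.47 and 10.64, against 10.03 and 10.12 untreated (adjusted p = 0.00593), and by 0.36 in C57BL/6 with LPS at 5 ng/ml (adjusted p = 0.0311), with 0.43 counted from 2 h (adjusted p = 0.00764). The IFN-gamma call was lost without the second IFN-gamma array (0.40, adjusted p = 0.111) or the first untreated array (0.44, adjusted p = 0.0766). Ndufs1, Ndufs7 and Ndufv2 were called in no 24 h minus 0 h comparison.

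Succinate dehydrogenase links the tricarboxylic acid cycle to the chain. Its iron-sulphur subunit Sdhb rose in C57BL/6 at 5 ng/ml, with 10.55 and 10.66 against 10.21 and 10.27 untreated, and at 50 ng/ml, with 10.64 and 10.65. The rises were 0.37 and 0.41 (SE 0.12, adjusted p = 0.0152 and 0.00637). The change at 0.5 ng/ml was 0.28 (adjusted p = 0.072) and in BALB/c with LPS 0.10 (adjusted p = 0.59). The order was another one counted from 2 h, with 0.38 in BALB/c (adjusted p = 0.00938) and 0.20, 0.42 and 0.21 in C57BL/6 (adjusted p = 0.216, 0.00411 and 0.192). Sdhc, a membrane anchor, fell by 0.41 in BALB/c with LPS (adjusted p = 0.00155). Sdha, the flavin subunit, and Sdhd, the other anchor, had changes between -0.14 and 0.20 and no call at 24 h. In complex III, Uqcr11 fell by 0.85 ± 0.14 in BALB/c with LPS, with 9.74 and 9.54 against 10.51 and 10.47 untreated (adjusted p = 2.86e-06), although counted from 2 h the change was -0.32 and not called. It fell by 0.45 in C57BL/6 at 0.5 ng/ml (adjusted p = 0.0117), and the call was lost without the first 24 h array or the first untreated array (-0.39 in both, adjusted p = 0.0953 and 0.107). Uqcr10 and the core protein gene Uqcrc1 also fell in BALB/c with LPS (-0.51 and -0.42).

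Assembly factors moved in both directions with time. Sdhaf1, which helps to load iron-sulphur clusters into Sdhb, read 7.69 and 7.48 at 24 h of LPS in BALB/c, against 6.82 and 6.69 untreated, a rise of 0.83 ± 0.15 (adjusted p = 2.53e-05). In C57BL/6 it read 7.13 and 7.33, 7.52 and 7.60, and 7.33 and 7.27 at the 3 doses, against 6.52 and 6.77 untreated. The rises were 0.58, 0.91 and 0.65 (adjusted p = 0.00282, 6.62e-06 and 0.000777), and the first was lost without the second 24 h array (0.48, adjusted p = 0.0639) or the first untreated array (0.46, adjusted p = 0.0823). Counted from 2 h the C57BL/6 rises were 0.40, 0.85 and 0.60 (adjusted p = 0.0438, 1.75e-05 and 0.0017). With IFN-beta and IFN-gamma its changes were -0.24 and 0.09, and neither was called. Sdhaf1 has 2 probe sets here with means of 6.68 and 5.35, and the values are those of the brighter one. With the mean of both the 0.5 ng/ml rise was 0.28 and not called.

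Before its rise Sdhaf1 fell in some courses. At 8 h it read 5.99 and 5.78 at 5 ng/ml and 5.97 and 5.96 at 50 ng/ml in C57BL/6, against 6.52 and 6.77 untreated, falls of 0.76 and 0.68 (adjusted p = 9.7e-05 and 0.000388). At 0.5 ng/ml it read 7.01 and 6.51, and in BALB/c with LPS 6.65 and 6.76, with no call in either. With IFN-beta it read 6.25 and 6.27 at 8 h and 5.98 and 6.02 at 4 h, against 6.82 and 6.69 untreated. That 8 h fall of 0.49 (adjusted p = 0.0169) was lost without either 8 h array (adjusted p = 0.0929 and 0.075) or without the first untreated array (adjusted p = 0.15). From 8 to 24 h it then rose by 1.67 and 1.33 in C57BL/6 at 5 and 50 ng/ml (adjusted p = 2.42e-11 and 4.57e-09) and by 0.88 in BALB/c with LPS (adjusted p = 1.58e-05). The 8 to 24 h rise at 0.5 ng/ml was 0.47 (adjusted p = 0.0269), and it was 0.37 without the second 24 h array (adjusted p = 0.243) and 0.22 without the second 8 h array (adjusted p = 0.53).

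Of the complex I factors, Ndufaf1, which binds early membrane arm intermediates, read 7.63 and 7.96 at 24 h of LPS in BALB/c, against 6.91 and 7.01 untreated, a rise of 0.83 ± 0.20 (adjusted p = 0.000768). In C57BL/6 its changes were 0.47, 0.56 and 0.48 at the 3 doses, called at 5 ng/ml (adjusted p = 0.029) but not without the second 24 h array (0.40, adjusted p = 0.261) or the first untreated array (0.42, adjusted p = 0.25). These changes were 0.59, 0.45 and 0.45 counted from 2 h, called only at 0.5 ng/ml (adjusted p = 0.0205, 0.0861 and 0.0781). Ndufaf3, a partner of Ndufaf4, rose by 0.61, 0.53 and 0.53 in C57BL/6 (adjusted p = 0.000298, 0.00155 and 0.0014) and by 0.38 in BALB/c with LPS (adjusted p = 0.0218), with no call for either interferon (0.14 and -0.03). From 2 h its C57BL/6 rises were 0.56, 0.41 and 0.45 (adjusted p = 0.000804, 0.0141 and 0.00571). Ndufaf5 rose by 0.48 at 5 ng/ml (adjusted p = 0.0452), a call lost without the second 24 h array (0.25, adjusted p = 0.472) or either untreated array (adjusted p = 0.111 and 0.175).

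Other assembly factors were lower at 24 h of LPS. Ndufaf7, which methylates a core subunit of complex I, read 5.66 and 5.80 at 5 ng/ml and 5.87 and 5.72 at 50 ng/ml in C57BL/6, against 6.11 and 6.29 untreated, falls of 0.47 and 0.40 (adjusted p = 0.0093 and 0.0259). It fell by 0.41 in BALB/c with LPS (adjusted p = 0.0211), with 5.55 and 5.83 against 6.03 and 6.17 untreated. The 5 ng/ml call was lost without the first 24 h array (-0.40, adjusted p = 0.0972) or the second untreated array (-0.38, adjusted p = 0.123), the 50 ng/ml call without the second 24 h array (-0.33, adjusted p = 0.194) or the second untreated array (-0.31, adjusted p = 0.224), and the BALB/c call without the first 24 h array (-0.27, adjusted p = 0.254), without the second untreated array (adjusted p = 0.172) or with arrays centred (-0.23, adjusted p = 0.212). Counted from 2 h the C57BL/6 changes were -0.19, -0.84 and -0.73 (adjusted p = 0.343, 5.67e-06 and 4.62e-05). Its 24 h changes with IFN-beta and IFN-gamma were -0.04 and -0.36, and neither was called.

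Sdhaf4, a further factor of succinate dehydrogenase, read 5.45 and 5.95 in C57BL/6 at 50 ng/ml, against 6.55 and 6.35 untreated, a fall of 0.75 (adjusted p = 0.0182). It was lost without the first 24 h array (-0.50, adjusted p = 0.276) or the first untreated array (-0.65, adjusted p = 0.135), and counted from 2 h it was -0.73 (adjusted p = 0.0199). Ndufaf2 fell by 0.41 in BALB/c with LPS (adjusted p = 0.0205), a call lost without the second 24 h array (-0.36, adjusted p = 0.118) or either untreated array (adjusted p = 0.0836 and 0.0793).

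At 8 h several assembly factors fell. Ndufaf7 fell in all 6 courses: by 0.55 with IFN-beta, 0.50 with IFN-gamma, 0.86 with LPS in BALB/c, and 0.43, 0.79 and 0.70 with LPS in C57BL/6 at 0.5, 5 and 50 ng/ml (SE 0.14). The adjusted p values were 0.00308, 0.00935, 3.03e-06, 0.0238, 1.55e-05 and 8.95e-05 in that order. The LPS calls at 5 and 50 ng/ml held without any 1 array and with arrays centred. The 0.5 ng/ml call was lost with arrays centred (-0.31, adjusted p = 0.111), without the second 8 h array (-0.18, adjusted p = 0.567) or without the second untreated array (-0.34, adjusted p = 0.225). The IFN-beta call was lost without the first 8 h array (-0.48, adjusted p = 0.0605) and the IFN-gamma call without the second (-0.46, adjusted p = 0.0994), and both without the second untreated array (adjusted p = 0.0609 and 0.123). In BALB/c it read 5.24 and 5.24 with LPS, against 6.03 and 6.17 untreated. The BALB/c courses share their untreated wells, as do the C57BL/6 courses, so the 6 falls are not independent of each other. By 24 h it read 6.01 and 6.11 with IFN-beta, against 6.03 and 6.17 untreated.

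Ndufaf4 and Sdhaf3 fell at 8 h with IFN-beta and with LPS at 5 ng/ml and above. Ndufaf4 read 5.09 and 4.75 in C57BL/6 at 5 ng/ml, against 5.67 and 5.84 untreated, a fall of 0.83 ± 0.19 (adjusted p = 0.000428). It fell by 0.54 at 50 ng/ml, 0.58 with LPS in BALB/c and 0.64 with IFN-beta (adjusted p = 0.0216, 0.0119 and 0.0102), with -0.16 at 0.5 ng/ml and -0.08 with IFN-gamma. Sdhaf3, which also serves Sdhb, fell by 0.67 and 0.48 in C57BL/6 at 50 and 5 ng/ml, 0.39 with LPS in BALB/c and 0.54 with IFN-beta. Ndufaf2 fell by 0.50 with IFN-beta (adjusted p = 0.0071), and Ndufaf6 by 0.46 and 0.45 with LPS at 5 ng/ml in BALB/c and C57BL/6 (adjusted p = 0.0402 and 0.0497). Sdhaf4 fell by 0.63 at 8 h of LPS in BALB/c (adjusted p = 0.0454), while Sdhaf2 and Ndufaf5 had no call at 8 h. Of the core subunits Ndufs7 fell most often at 8 h, by 0.21 with IFN-beta, 0.43 with LPS in BALB/c, and 0.35 and 0.41 in C57BL/6 at 5 and 50 ng/ml (SE 0.08).

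**Figure D4:**
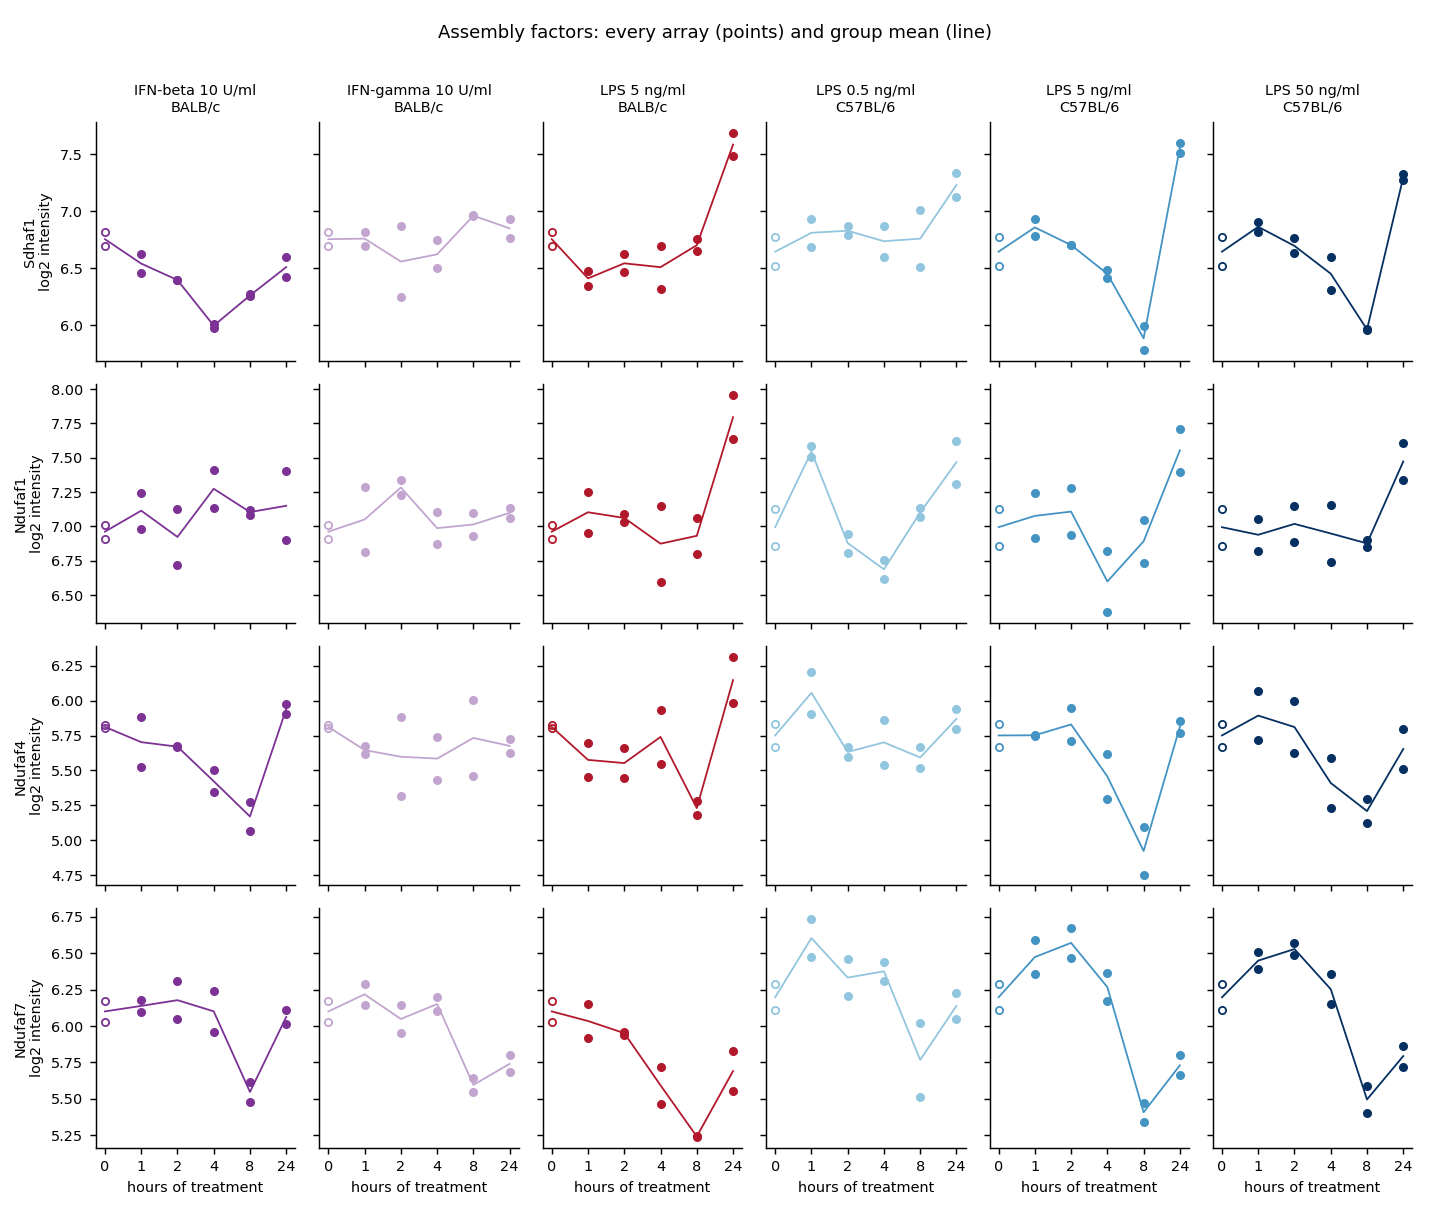
Log2 intensity of the assembly factors Sdhaf1, Ndufaf1, Ndufaf4 and Ndufaf7 (rows) against time in the 6 courses (columns), with 1 point per array and open points for the untreated wells. Ndufaf7 lies below the untreated wells at 8 h in each course, and Sdhaf1 and Ndufaf1 lie above them at 24 h with LPS at 5 ng/ml in both strains.

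Counted by role at 8 h, 3 of 7 complex I factors and 2 of 4 succinate dehydrogenase factors fell with IFN-beta, with LPS in BALB/c and with LPS at 5 ng/ml in C57BL/6. Of the 19 cytochrome oxidase genes limma called 0 in each course at 8 h, with 0 or 1 at an unadjusted p under 0.05, and their changes lay between -0.30 and 0.35. Over all 92 genes the 8 h calls were 0 higher and 8 lower with IFN-beta (19% of all genes called), 0 and 1 with IFN-gamma (15%), and 1 and 24 with LPS in BALB/c (34.8% called, 21.1% lower). In C57BL/6 they were 0 and 1, 0 and 7, and 2 and 6 at the 3 doses (20.6%, 31% and 32.2% of all genes called). At 4 h IFN-beta gave 2 higher and 25 lower (24.8% of all genes called). Both of its 4 h arrays were among the 11 that stood apart on probe sets without a gene, and with that set of arrays as a covariate the count was 0 higher and 10 lower. At 4 h the other BALB/c courses gave 5 falls with IFN-gamma (12.9% of all genes called), in a group with 1 array standing apart, and 13 with LPS (24.4%).

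Before 4 h few of these genes were called. LPS in BALB/c gave 5 falls at 1 h (5.03% of all genes called) and 4 at 2 h (7.24%). In C57BL/6 at 0.5 ng/ml 4 genes rose at 1 h (3.83%), in the group that holds an array standing apart, and at 50 ng/ml 1 rose at 2 h (5.84%). Between 8 and 24 h 14 genes rose and 8 fell in BALB/c with LPS (26.3% of all genes called). In C57BL/6 7 rose and 9 fell at 0.5 ng/ml (17.2%), 10 rose and 6 fell at 5 ng/ml (26.3%), and 10 rose and 8 fell at 50 ng/ml (27.1%). IFN-beta gave 5 higher and 3 lower (15.9%), with Ndufaf4 (0.77), Sdhaf3 (0.60) and Ndufaf7 (0.51) at the head. IFN-gamma gave Cox6a2 higher (0.69) and Cox7a1 lower (-0.85) and no other gene (5.92%). This Cox6a2 call was lost in 3 of the 4 fits that leave out 1 array (0.56 to 0.83). The Cox7a1 call was lost in 2 of the 4 (-0.95 to -0.74).

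**Figure D5:**
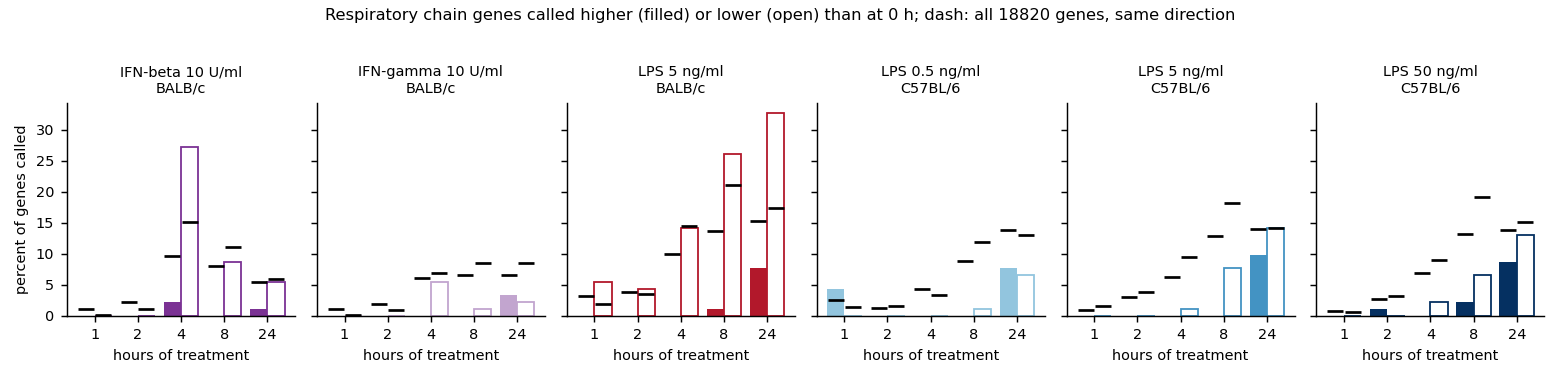
Percent of the 92 genes called higher (filled) or lower (open) than 0 h at each time in the 6 courses, with dashes for the percent of all 18820 genes called in the same direction. The LPS course in BALB/c has the most falls, 30 of 92 genes at 24 h, which become 11 when each array is centred on the median.

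With IFN-beta the calls at 24 h other than Cox6a2 were falls of Ndufb8 (-0.60), Ndufa5 (-0.53), Uqcr11 (-0.47), Atp5l (-0.46) and Cox7a2 (-0.34). Ndufb8 read 10.18 and 9.52, against 10.45 and 10.46 untreated, and its change was -0.27 without the second array (adjusted p = 0.495), -0.61 without the first untreated array (adjusted p = 0.0756) and -0.59 without the second (adjusted p = 0.0868). Ndufa5, an accessory subunit of the peripheral arm, changed by -0.46 without the first untreated array (adjusted p = 0.0819). Uqcr11 changed by -0.40 without the second IFN-beta array (adjusted p = 0.182), and by -0.45 and -0.49 without the first or second untreated array (adjusted p = 0.124 and 0.0885). The Atp5l call was lost without any 1 of the 4 arrays compared (-0.43 to -0.49, adjusted p up to 0.183).

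The stimuli were compared with each other at 24 h in BALB/c. IFN-beta against IFN-gamma gave 0 higher and 6 lower genes (10.5% of all genes called): Uqcrfs1, the Rieske iron-sulphur protein of complex III (-0.54, adjusted p = 0.00207), Cox5a (-0.42), Ndufs3 (-0.38), Sdhb (-0.35), Atp5g3 (-0.35) and Cox5b (-0.26). Of these 6 calls only that of Uqcrfs1 held without any 1 of the 4 arrays. Cox6a2 and Cox7a1 were not called between the interferons, with 95% intervals of -0.48 to 0.30 and -0.14 to 0.71. IFN-beta against LPS gave 11 higher and 6 lower (27% of all genes called), with Cox6a2 at -1.99 on the log2 scale (adjusted p = 4.7e-11), Sdhaf1 at -1.07, Ndufaf1 at -0.65, Cox5a at -0.58, Ndufs4 at -0.46 and Sdhb at -0.33. On the higher side Cox7a1 stood at 1.51 (adjusted p = 1.87e-07), Sdhaf4 at 0.88, Ndufb7 at 0.79, Ndufb11 at 0.60, and Atp5g2 and Ndufv3 at 0.48 each. With arrays centred this comparison gave 6 higher and 11 lower, where 10.7% of all genes were called higher and 18.4% lower, and the median difference of the 92 genes was -0.086 in place of 0.043. The calls of Ndufaf1, Ndufs4 and Sdhb were lost without the first IFN-beta array (-0.39, -0.29 and -0.23, adjusted p = 0.281, 0.288 and 0.272) or the second LPS array (-0.48, -0.28 and -0.23, adjusted p = 0.154, 0.268 and 0.284), and that of Sdhaf4 without the second IFN-beta array (0.74, adjusted p = 0.0718) or the first LPS array (0.54, adjusted p = 0.203). IFN-gamma against LPS gave 19 higher and 5 lower (28.3% of all genes called), with Cox6a2 at -1.90, Sdhaf1 at -0.73, Ndufaf1 at -0.70, Ndufaf3 at -0.41 and Ndufs4 at -0.40, and with Cox7a1 at 1.22, Sdhaf4 at 0.77, Ndufb7 at 0.76, Ndufa12 at 0.68, Atp5mpl at 0.62 and Atp5k at 0.60. Of these 11, the calls of Cox6a2, Sdhaf1, Cox7a1, Ndufb7 and Atp5mpl held without any 1 of the 4 arrays. The others were lost in some fit, with changes down to -0.54 for Ndufaf1, -0.26 for Ndufaf3, -0.22 for Ndufs4, 0.43 for Sdhaf4, 0.38 for Ndufa12 and 0.31 for Atp5k. At 8 h Sdhaf1 was lower with IFN-beta than with IFN-gamma (-0.70, adjusted p = 0.00135), with 6.25 and 6.27 against 6.97 and 6.96.

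Few of these genes differed between LPS doses in C57BL/6 at 24 h. LPS at 50 against 0.5 ng/ml gave 3 lower genes (6.16% of all genes called): Ndufa4 (-0.53 ± 0.15, adjusted p = 0.024), Ndufa9 (-0.43) and Ndufv1 (-0.29). Without single arrays the count was 0, 0, 2 and 0. The calls of Ndufa4 (-0.51 to -0.55, adjusted p up to 0.15) and Ndufv1 (-0.28 to -0.31, adjusted p up to 0.206) were lost without any 1 of the 4 arrays, and that of Ndufa9 without either 50 ng/ml array (adjusted p = 0.0779 and 0.179) or the second 0.5 ng/ml array (-0.32, adjusted p = 0.303). For Cox6a2 the difference was -0.21, with a 95% interval of -0.61 to 0.18, and for Cox7a1 -0.11, with an interval of -0.53 to 0.32. At 8 h the dose separated Sdhaf1, which was lower by 0.80 at 50 than at 0.5 ng/ml (adjusted p = 0.000148) and by 0.87 at 5 than at 0.5 ng/ml (adjusted p = 6.44e-05). Of all genes 17.4% and 12.7% were called in these 8 h comparisons, and of the 92 genes 2 in each, the others being Ndufs7 (-0.23) and Ndufaf4 (-0.67). At 8 h Sdhaf1 differed by 0.08 between 50 and 5 ng/ml, with an interval of -0.23 to 0.39.

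The strains were compared at 0 h and under LPS at 5 ng/ml. In untreated cells 6 genes were higher in BALB/c than in C57BL/6 (9.57% of all genes called): Ndufs5 (0.62 ± 0.16), Atp5l (0.60 ± 0.15), Uqcrq (0.43), Ndufv1 (0.34), Ndufb9 (0.31) and the dim Cox6b2 (0.71). Of the 92 genes 1 and 2 were called without the first or second BALB/c array, and 3 and 0 without the first or second C57BL/6 array. The untreated strains also differed in the LPS-induced sum given above and in the summed granulocyte markers (7.34 to 7.36 in BALB/c, against 7.95 to 8.29 in C57BL/6), and their part in these differences was not tested. Probe sets were designed on one genome sequence, so a strain difference in level and a base difference under a probe cannot be told apart. After 24 h of LPS 4 genes were higher and 2 lower in BALB/c (9.55%), led by Cox6a2 (1.04 ± 0.19, adjusted p = 0.000192) and, on the lower side, Ndufa2 (-0.58, adjusted p = 0.000929). After 8 h Sdhaf1 was higher in BALB/c by 0.82 (adjusted p = 0.000139), with 6.65 and 6.76 against 5.99 and 5.78.

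Whether the LPS change itself differed between strains was tested as an interaction. For the change from 2 to 24 h limma called 0 of the 92 genes (5.8% of all genes called). For the change from 0 to 24 h it called 0 genes (3.69%). At an unadjusted p under 0.05 the counts were 20 and 13 of the 92. The shares of all genes were taken at adjusted p, so they cannot be set beside these unadjusted counts. The Cox6a2 change from 2 to 24 h was larger in BALB/c by 0.83 (95% interval 0.28 to 1.38, adjusted p = 0.0646), and that of Cox7a1 differed by -0.00 (interval -0.60 to 0.60). Between 2 and 8 h Sdhaf1 was the 1 gene called (5.52% of all genes), with a signed difference of the changes, BALB/c minus C57BL/6, of 0.98 ± 0.22 (adjusted p = 0.00408), since it fell in C57BL/6. It read 6.62 and 6.47 at 2 h and 6.65 and 6.76 at 8 h in BALB/c, and 6.70 and 6.71 at 2 h and 5.99 and 5.78 at 8 h in C57BL/6. This call held without any 1 of the 8 arrays (0.87 to 1.08, highest adjusted p = 0.0346).

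Other genes of the organelle were counted in the same 24 h comparisons, in lists that were not trimmed by their values. Their counts stand beside the same background, 32.8% of all genes called in BALB/c with LPS, 26.8%, 28.1% and 28.9% in C57BL/6 at the 3 doses, 11.5% with IFN-beta and 14.9% with IFN-gamma. Electron carriers and assembly factors outside the prefixes gave 10 higher and 2 lower of 20 measured in BALB/c with LPS, and 9 and 3, 7 and 3, and 6 and 3 in C57BL/6 at 0.5, 5 and 50 ng/ml. They gave 0 and 0 with IFN-beta and 2 and 0 with IFN-gamma. Chosen after their values were seen, Cox17, Sco1, Cox11 and Cox19, which handle the copper of cytochrome oxidase, and Cox18, which inserts an oxidase subunit in the membrane, each rose in all 4 LPS courses. Cox17 rose by 0.69 in BALB/c (adjusted p = 0.00809) and by 0.90, 0.93 and 0.98 in C57BL/6, and Sco1 by 0.90 in BALB/c and 0.58, 0.61 and 0.81 in C57BL/6. The rises of Cox11 were 0.67 in BALB/c and 0.63, 0.54 and 0.53 in C57BL/6, those of Cox19 0.63 and 0.60, 0.70 and 0.60, and those of Cox18 0.72 and 0.47, 0.61 and 0.46. Atpif1, the inhibitor of ATP synthase, fell by 0.39 in BALB/c and by 0.32, 0.42 and 0.62 in C57BL/6. For these genes and those of the next paragraph, changes counted from 2 h and fits without single arrays are not given. Their C57BL/6 changes start from untreated wells that already held LPS-induced transcripts.

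The tricarboxylic acid cycle gave 1 higher and 3 lower of 13 measured in BALB/c and at the lower C57BL/6 doses, and 1 and 4 at 50 ng/ml. Suclg2, a subunit of succinyl-CoA ligase, fell by 1.10 in BALB/c and by 0.81, 1.44 and 1.64 in C57BL/6, and fumarase Fh1 fell by 0.65 and by 0.67, 0.96 and 1.18. Mitochondrial ribosomal protein genes gave 8 higher and 9 lower of 74 in BALB/c with LPS (against 15.3% of all genes higher and 17.4% lower), led by Mrpl45 (2.05) and Mrps26 (-1.21). Of 9 regulators of mitochondrial genes, Esrra, a nuclear receptor that drives respiratory genes, rose by 0.60 in BALB/c and by 1.06 and 1.10 in C57BL/6 at 5 and 50 ng/ml. Ppargc1b, its coactivator, rose by 0.55 with IFN-gamma (adjusted p = 0.041). The count of regulators called, the Esrra change at 0.5 ng/ml and the changes of the other regulators are not given here.

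Markers of other cells moved in the same 24 h comparisons. The log2 of the summed intensity of 5 stromal markers was 8.79 to 9.06 in BALB/c with LPS, against 7.36 to 7.46 untreated. In C57BL/6 it was 7.46 to 7.67, 8.25 to 8.28 and 8.23 to 8.24, against 7.05 to 7.12 untreated. Of the 5, Dcn (4.12) and Pdgfrb (1.60) rose in BALB/c and the same 2 rose in each C57BL/6 course, while Col1a1 changed by -0.27 in BALB/c and was not called. In BALB/c with LPS the stromal sum was 9.47 to 9.53 at 8 h. The summed level of 7 granulocyte markers, on the same scale, was 7.23 to 7.33 in BALB/c with LPS, against 7.34 to 7.36 untreated. In C57BL/6 it was 7.28 to 7.60 over the 3 doses, against 7.95 to 8.29 untreated, and 4, 5 and 3 of the 7 fell at 0.5, 5 and 50 ng/ml. Of 4 dendritic markers Itgax and Cd209a fell in every LPS course (Itgax by 1.20 in BALB/c). Their part in the respiratory chain results was not tested. In cultured cells less RNA per cell and fewer cells of a type cannot be told apart.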

How the data were processed

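RNA from 64 wells was hybridised to Affymetrix arrays. The deposited values are linear intensities per probe set, made with Affymetrix Expression Console 1.1 per the submitters' processing notes; the summarisation and normalisation are not given in the sources used here, so log2 of the deposited intensity was taken with no further scaling. Of 35556 probe sets, 21218 carry 1 symbol, 1881 several and 12457 none, and the brightest probe set by mean stood for each of 18820 genes. The design text of the series names an empirical Bayes test, and limma 3.58.1 (R 4.3.3) was fitted to 32 group means (32 residual degrees of freedom) with Benjamini-Hochberg adjustment over all genes. On simulated data for the BALB/c LPS comparison over 18820 genes it recovered 11 of 50 genes changed by 0.5, 40 of 50 changed by 1, 43 of 50 changed by -1 and all 50 changed by 2 on the log2 scale, with 9 false calls.

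The 92 genes, the other lists and the comparisons were chosen with earlier results of these data known. Named genes are the 6 largest falls and 6 largest rises called per comparison, every succinate dehydrogenase, core, assembly and tissue-form gene; of the other lists the 2 most changed genes were looked up per comparison and only some are printed; further names were chosen after their values were seen. Arrays limit precision by their number, 2 a group. Alternatives were scaling, dim genes left out, probe sets averaged, trend and robust settings, the replicate number as a block, the set of 11 arrays, the 5 arrays standing apart, a minimum change, the arrays entering the fit, the baseline and single arrays left out. Replicate numbers did not pair the arrays in general: over 496 pairs of groups the correlation of replicate differences ran from -0.47 to 0.55. The highest, 0.55, was that of IFN-beta and LPS at 24 h in BALB/c, where both second arrays belong to the set of 11.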

Additional observations from a re-analysis of the deposited data

Results flagged for a closer look

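These results were singled out because the change under LPS at 5 ng/ml differed between BALB/c and C57BL/6 by a limma test of the difference itself. Between 2 and 8 h the signed difference of the Sdhaf1 changes, BALB/c minus C57BL/6, was 0.98 ± 0.22 on the log2 scale (adjusted p = 0.00408): BALB/c arrays read 6.62 and 6.47 at 2 h and 6.65 and 6.76 at 8 h, and C57BL/6 arrays 6.70 and 6.71 at 2 h and 5.99 and 5.78 at 8 h. Between 8 and 24 h the same signed difference was -0.79 ± 0.22 (adjusted p = 0.034), and this call was lost in 6 of the 8 fits that leave out 1 array. Cox6a2 changed more in BALB/c between 8 and 24 h by 1.22 ± 0.27 (adjusted p = 0.00638), and by 0.94 without the first BALB/c 24 h array (adjusted p = 0.0611) and 0.99 without the second C57BL/6 24 h array (adjusted p = 0.0572), which stands apart. The dim gene Cox7b2 differed by -0.93 ± 0.23 over the same interval (adjusted p = 0.0169), a call lost in 4 of the 8 such fits. From 2 to 24 h, where the C57BL/6 0 h wells play no part either, none of these genes was called.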

How the results depend on the processing

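Over 136 named results and 1841 recomputed values 0 reversed, 1521 stayed on their side of the threshold, 318 lost their call and 2 gained one, both for Cox6a2 with IFN-beta from 8 to 24 h. The number of the 92 genes called moved by over 1.5 times as follows. For IFN-beta at 24 h (6) it was 11 with dim genes left out, 12 with the set of 11 arrays as a covariate, 12 without the 5 arrays standing apart, 3 with a minimum change of 0.5, 0 with only the arrays compared and 11 with only the larger set of arrays. For IFN-gamma (5) it was 2 with the minimum change, 3 with only the arrays compared and 10 counted from 2 h. For LPS in BALB/c (37) the minimum change gave 18 and only the arrays compared 14. In C57BL/6 at 0.5 ng/ml (13) centring gave 22 and leaving out dim genes 23. At 5 ng/ml (22) leaving out the 5 arrays gave 13, the minimum change 10 and only the arrays compared 8. At 50 ng/ml (20) the minimum change gave 7. The minimum change and only the arrays compared gave 1 and 0 for IFN-beta against IFN-gamma (6, with 11 in the larger set), 8 and 3 for IFN-beta against LPS (17), 14 and 5 for IFN-gamma against LPS (24), and 1 and 0 for 50 against 0.5 ng/ml (3). For the strains at 0 h (6) it was 11 without dim genes, 17 with the set as a covariate, 20 in the larger set and 3 with the minimum change. For the strain difference in the change from 2 to 24 h (0) it was 3 with centring, 3 without dim genes, 2 with the set as a covariate, 3 without the 5 arrays and 1 in the larger set. Fits on only the arrays compared have fewer samples, and a minimum change removes genes by construction; the other causes were not tested.

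Without single arrays the counts ran from 1 to 10 for IFN-beta, 1 to 4 for IFN-gamma, 23 to 33 for LPS in BALB/c, 8 to 14, 11 to 19 and 9 to 13 for LPS in C57BL/6 at 0.5, 5 and 50 ng/ml, 2 to 8, 14 to 19 and 16 to 32 for the comparisons of stimuli, 0 to 2 for dose, 0 to 3 for strain and 0 to 9 for the strain difference. With the replicate number as a block they were 7, 5, 39, 15, 22, 21, 6, 18, 25, 4, 7 and 0 in the same order. The numbers share no general pairing, as 46 of 496 pairs of groups correlate above 0.1 (median 0.005). The highest correlation was that of IFN-beta and LPS at 24 h in BALB/c. Centring also changed the split of the other comparisons to 0 higher and 7 lower (IFN-beta against IFN-gamma), 6 and 11 (IFN-beta against LPS), 15 and 8 (IFN-gamma against LPS), 0 and 2 (dose) and 4 and 1 (strains). With 2 arrays a group, changes near 0.5 log2 units are often missed.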

Other observations

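Genes that lie next to Cox6a2 and Cox7a1 in the RefSeq gene order (GRCm38.p6) were read in the same 24 h minus 0 h comparisons; they were chosen after the Cox6a2 and Cox7a1 values had been seen. Near Cox6a2 lie the integrin genes Itgax, Itgam and Itgad. Itgax, the CD11c chain, fell in all 6 courses, by 0.88 with IFN-beta, 1.30 with IFN-gamma, 1.20 with LPS in BALB/c and 0.85, 0.89 and 1.48 in C57BL/6 at 0.5, 5 and 50 ng/ml. Itgam, the CD11b chain, fell by 0.71 in BALB/c with LPS and by 0.29, 0.49 and 0.23 in C57BL/6. Itgad, on the same stretch, was called in none of them, with changes of -0.14 in BALB/c with LPS and 0.36, 0.37 and 0.12 in C57BL/6. Armc5 fell by 0.81 in BALB/c with LPS and by 0.59 in C57BL/6 at 0.5 ng/ml. Of all genes 17.4% were called lower in BALB/c with LPS at 24 h, and a part of gene position was not tested.

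Near Cox7a1, the zinc finger gene Zfp382 fell by 0.52 with IFN-beta, by 1.11 with LPS in BALB/c and by 1.06, 1.07 and 0.80 in C57BL/6, in the same direction as Cox7a1. Capns1 and Zfp146 were called in no course. Polr2i rose by 0.54 in C57BL/6 at 50 ng/ml, and Tbcb by 0.40 and 0.29 at 0.5 and 5 ng/ml.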
